A study of Mus musculus with 7 samples.

Results

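The genes described here encode the proteins of the cytosolic ribosome, and they were followed through 6 days of embryoid body differentiation. Members were taken by name: every row whose symbol is Rpl or Rps with a number and at most a short suffix, plus Rplp0, Rplp1, Rplp2 and Rpsa, if it was above 0 in at least 1 of the 7 libraries. This gave 84 of the 21813 genes above 0 in any library, 51 of the large (60S) subunit and 33 of the small (40S) subunit. All 84 are in the GENCODE M21 annotation of GRCm38, 83 as protein-coding genes and Rps4l as a transcribed processed pseudogene. The name rule also takes in paralogs such as Rpl10l and Rpl39l, and it leaves out rows named as pseudogenes.

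Polyadenylated RNA was measured by bulk RNA-seq in Bry-GFP mouse embryonic stem cells, which all groups derive from. The day 0 group (2 libraries) is stem cells that had been kept on mouse embryonic fibroblast feeders in medium with serum and LIF, the cytokine that holds them undifferentiated. The day 2 group (2 libraries) had been held for 48 h in suspension in serum-free medium at 75000 cells per mL, away from the feeders, and had formed embryoid bodies. The day 4 group (2 libraries) had a further 48 h with 3 added factors, namely Noggin (150 ng/mL), Wnt3a (25 ng/mL) and Activin A (9 ng/mL). The day 6 group (1 library) had 48 h more as aggregates with basic FGF at 10 ng/mL and without the earlier factors. The labels call the replicates biological. Day 6 has no replicate, so its comparison assumes the same spread for it as for days 0, 2 and 4. The labels used here do not say whether feeder cells were still present when the day 0 RNA was taken.

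Each ribosome holds 1 copy of nearly every ribosomal protein, and cells make these proteins in balanced amounts: surplus protein that finds no ribosomal RNA to bind is degraded. In mammals the mRNAs begin with an uninterrupted run of pyrimidines, the 5′ terminal oligopyrimidine tract, through which mTOR and the binding protein Larp1 control their translation. The genes are among the most highly transcribed in dividing cells, and reverse transcription of their mRNAs has left many intronless processed pseudogenes in mammalian genomes. In early embryos and stem cells the output of ribosomes is tied to growth and to the exit from pluripotency.

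Start sites are shown first because the tract is what these genes are known to share in sequence. RefSeq start windows (GRCm38.p6) were found for 63 of the 84 members, taking the listed start nearest to the GENCODE 5′ end of the gene. Each line below gives 30 bases, 14 before the start and 16 from the start on. Capitals mark an unbroken run of at least 7 C or T bases that has at least 7 bases between 6 bases before and 15 bases after the start. Rplp2, Rps9 and Rps26 are members that fell on day 6. Rpl39l and Rpl10l fell on day 4 and are shown with their parent genes Rpl39 and Rpl10, and Rps3a1 fell on day 2.
Rplp2: gcgtcagcgTCTTCCTTTCgccgccggacg
Rps9: ccgccttgTCTCTCTTTgtctcgggcctga
Rps26: tcgggcaagccgccggaTCCTCTTTCgagt
Rpl39: ctaagctccgcctctagcgaCTTCTTCTaa
Rpl39l: tcccaggcctttccggatttccggtggtcg
Rpl10: ttgttacagtggaagataggccgcctatat
Rpl10l: ttggcctccattttgcggctggcggtgggc
Rps3a1: taaagccggaagggcgaaagagcaagggtc

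These windows lie at chr7:141447637-141447666 (Rplp2, plus strand), chr7:3704027-3704056 (Rps9, plus strand), chr10:128626491-128626520 (Rps26, minus strand), chrX:37085207-37085236 (Rpl39, minus strand), chr16:10170214-10170243 (Rpl39l, plus strand), chrX:74270802-74270831 (Rpl10, plus strand), chr12:66284386-66284415 (Rpl10l, minus strand) and chr3:86142653-86142682 (Rps3a1, minus strand). The run was found in 24 of the 63 members (38.1%), against 3658 of all 32851 listed starts (11.1%). Listed starts can lie away from the annotated end of the gene. Those of Rplp2, Rps26 and Rpl39 lay 281, 241 and 180 bases from the GENCODE 5′ end. In the other start windows shown above the distance was at most 48 bases. Of 15 members with a listed start that fell on day 6, 7 had the run, and of the 48 others 17 had it. The windows of Rpl39l and Rpl10l had no such run by this count, nor did those of Rpl10 and Rps3a1. A match is a description of the letters, and its absence says only that they are not in this window.

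A second motif often found at ribosomal protein promoters is CCGGAAG, the core that ETS-family factors such as GABP bind. It was searched on both strands in 250 bases before to 50 bases after each start, and 25 of the 63 members (39.7%) held it, against 2910 of all 32851 starts (8.86%). It stood in 7 of the 15 members that fell on day 6 and in 18 of the 48 others. Capitals mark it in the 47 bases shown for Rps26, Rplp2, Rpl39l and Rps2, where it appears as CTTCCGG when it lies on the other strand.
Rps26: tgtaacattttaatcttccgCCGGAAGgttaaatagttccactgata
Rplp2: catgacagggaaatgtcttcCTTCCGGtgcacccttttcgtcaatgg
Rpl39l: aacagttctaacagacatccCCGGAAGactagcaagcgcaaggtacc
Rps2: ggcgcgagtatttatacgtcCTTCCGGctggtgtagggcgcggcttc

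These windows lie at chr10:128626694-128626740 (Rps26, minus strand), chr7:141447523-141447569 (Rplp2, plus strand), chr16:10170062-10170108 (Rpl39l, plus strand) and chr17:24719916-24719962 (Rps2, plus strand). The motif and the run do not overlap in Rplp2 or Rps26, since the motif begins at positions -108 and -214 from the start.

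Levels are log2 of 1 plus scaled reads, and fold changes are on that scale, which understates changes of low genes. Library values are given in the order replicate 1, replicate 2. A level of 3 reads corresponds to 1.44 to 2.29 in the 7 libraries, and 16611 to 18211 genes were above 0 in a library. Day means were compared with limma over all 21813 genes, adjusted by the Benjamini-Hochberg method, and called at 0.05. The p-values measure the spread between these libraries.

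The members' share of all scaled reads was 3.05% and 2.84% (day 0), 3.2% and 2.68% (day 2), 3.64% and 4.04% (day 4) and 2.41% (day 6). The share was highest in both day 4 libraries and lowest in the day 6 library. The median level of the 84 members followed the same order by library, at 9.45 and 9.39, 9.53 and 9.21, 9.64 and 10.23, and 8.79. Because RNA came from whole cultures, fewer cells of a type and less RNA per cell cannot be told apart.

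Over the course, limma's F test called 39 of 84 members (46.4%) as changed, 25 of the 60S and 14 of the 40S subunit, against 28.6% of all genes tested. From day 0 to day 2, no member was called higher (5.76% of all genes were) and 1 was called lower (6.2% of all genes were), with 4 members higher and 5 lower at an unadjusted p under 0.05 in limma. From day 2 to day 4, no member was called higher (1.45% of all genes) and 2 were called lower (2.13% of all genes), with 19 higher and 2 lower at an unadjusted p under 0.05 in limma. From day 4 to day 6, no member was called higher (1.27% of all genes) and 24 were called lower (28.6% of members against 3.18% of all genes), with 3 higher and 40 lower at an unadjusted p under 0.05 in limma. The 24 were 14 of the 51 large-subunit and 10 of the 33 small-subunit members.

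The median log2 difference of the members was -0.05 from day 0 to day 2, 0.42 from day 2 to day 4 and -0.96 from day 4 to day 6. The middle value was 0.08 without day 4 replicate 2 and 0.3 to 0.55 without any other 1 of the 6 libraries of days 0, 2 and 4. For the 11800 genes whose mean level reached log2 of 11 the medians were 0.14, -0.02 and 0.06. The difference was above 0 in 69 of 84 members from day 2 to day 4 and below 0 in 71 of 84 from day 4 to day 6. From day 4 to day 6 the medians were -0.93 for the 60S and -0.99 for the 40S members, and from day 2 to day 4 they were 0.4 and 0.47. Other genes with a short coding sequence, under 1000 bases, had medians of 0.14, -0.05 and 0.12 (n = 3280).

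**Figure D1:**
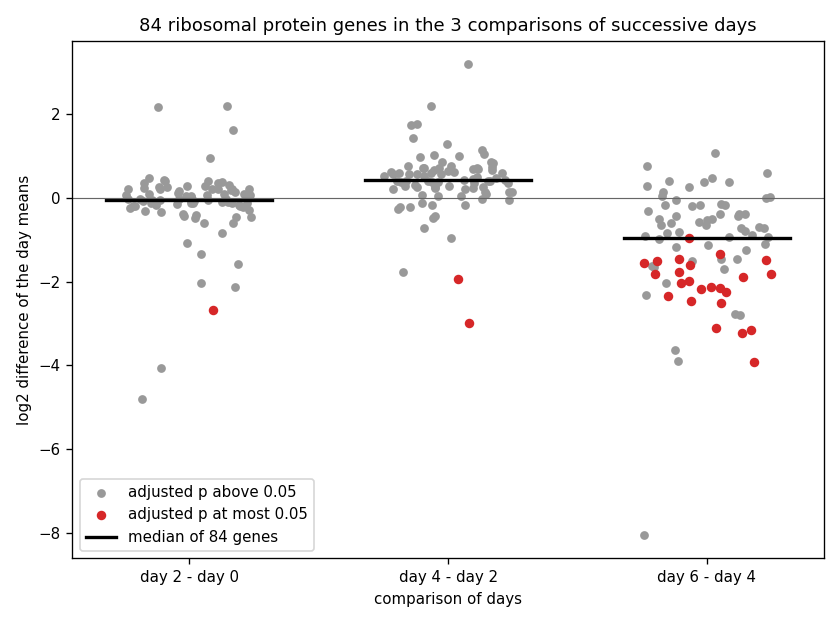
Log2 difference of the day means for each of the 84 ribosomal protein genes (points) in the 3 comparisons of successive days, with the median as a bar and red for a limma adjusted p of at most 0.05. The medians are -0.05, 0.42 and -0.96, and the 24 red points of the last comparison all lie below 0.

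The 24 day 6 calls depend on all the libraries being in the fit. Without day 4 replicate 2 limma called 3 of 84 members lower (3.57%), against 1.71% of all genes. Without day 0 replicate 1 or 2 it called 0 members lower, with 27 past an unadjusted p of 0.05 in either direction in each, while 160 and 158 of all genes were called lower and 563 and 560 higher. Without day 2 replicate 1, day 2 replicate 2 or day 4 replicate 1 it called 0 of all genes, members included, in either direction, with 43, 43 and 36 members past an unadjusted p of 0.05. The members' median difference ran from -1.42, with day 4 replicate 1 left out, to -0.48, with its replicate 2 left out, over the 6 omissions. The count of members changed over the course was also smaller in each of these fits. The share of all genes so called in them is not given here. Without limma's trend and robust steps 4 members (4.76%) were lower on day 6, and with days 4 and 6 alone in the fit 0 were, with 24 past an unadjusted p of 0.05. The same fits called 247 (1.13%) and 25 (0.115%) of all genes lower, and with days 4 and 6 alone 877 were called higher.

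Among the 24, the differences ran from -3.92 to -0.97 with a median of -2.01, and limma's adjusted p ran from 0.0144 to 0.0498. Day 6 was the lowest of the 7 libraries in all 24. Day 4 replicate 1 was above replicate 2 in 12 of the 24, and the largest gap between these replicates was 0.88 in Rps7. In 23 of the 24 the day 4 mean was above the day 2 mean, with a median difference of 0.68. Of all 84 members 69 had it above, with a median of 0.42. The 24 were called on these same day 4 and day 6 values, which favours a high day 4 and a low day 6 among them. Their day 6 library minus the day 0 mean had a median of -1.48 (log2). Of the 76 members at the mean-level minimum, 54 had the day 6 library below both day 4 libraries (71.1%, against 40.1% of all genes at that minimum) and 41 had it lowest of all 7 (53.9%, against 26.2%).

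**Figure D2:**
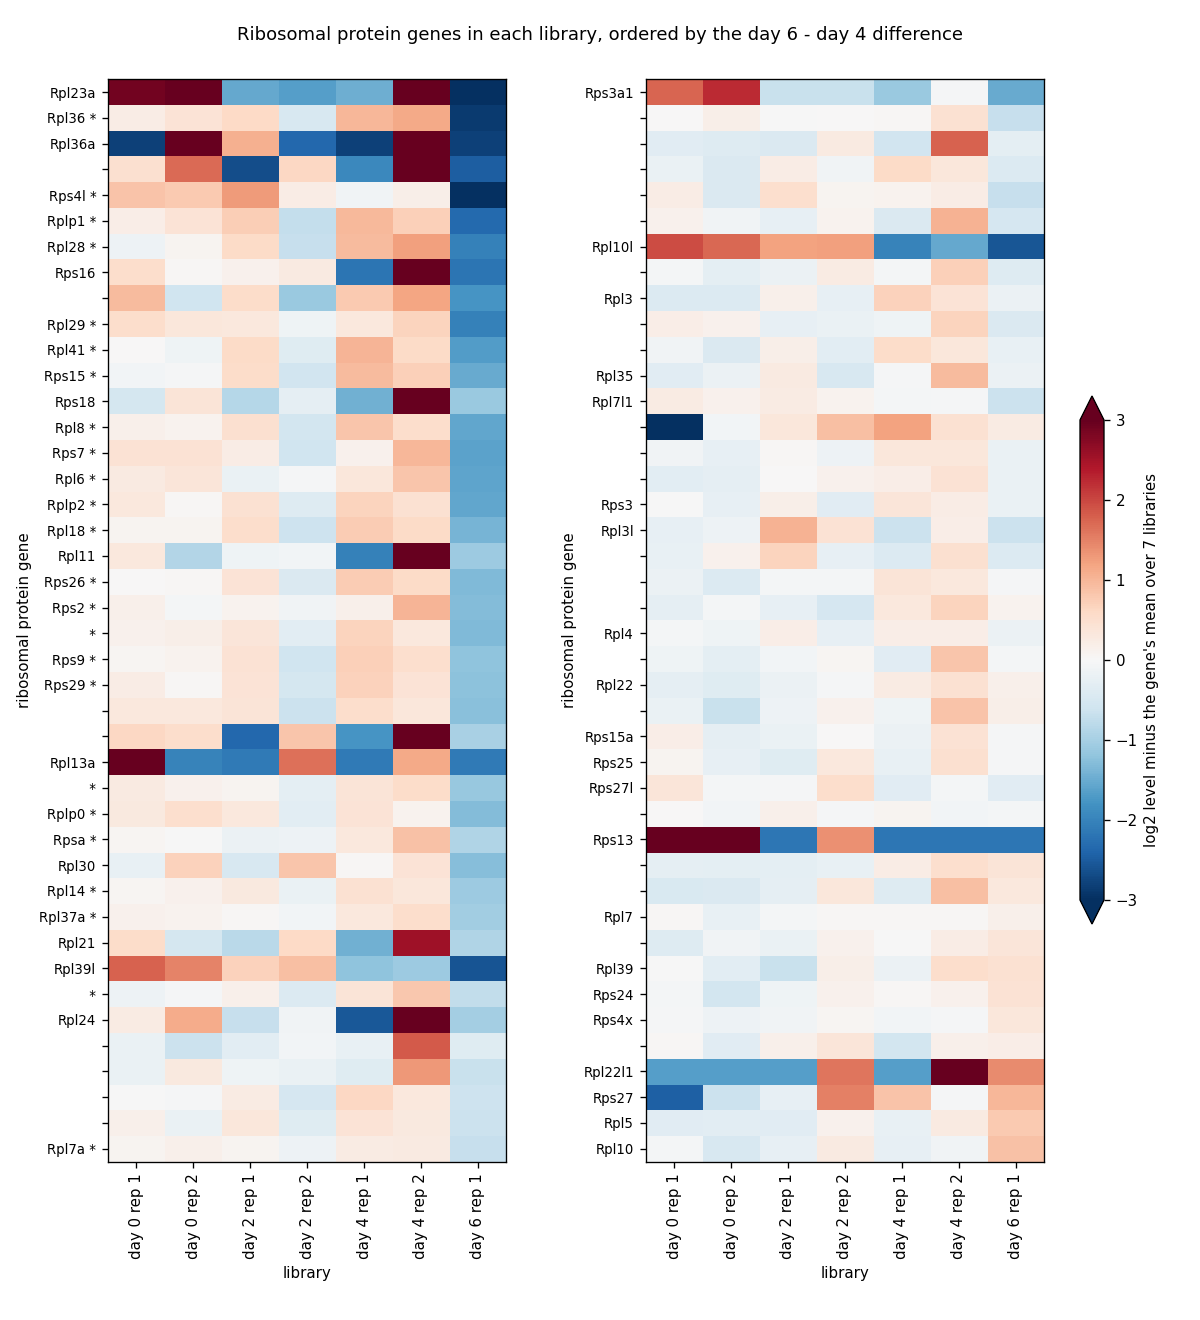
Level of each of the 84 ribosomal protein genes (rows) in each of the 7 libraries (columns), as the log2 level minus the gene's own mean, with colours ending at -3 and 3 and an asterisk for the 24 genes lower on day 6 by limma; names are given for genes described in the text. The left panel is blue in the day 6 column, and Rps18, Rpl11 and Rpl24 are among the rows whose strongest red lies in day 4 replicate 2.

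The stalk of the large subunit, a flexible arm that recruits the GTPases of translation, is built on Rplp0 with Rplp1 and Rplp2 bound to it. Rplp1 stood at 9.71 and 9.93 (day 0), 10.26 and 8.81 (day 2), 10.48 and 10.22 (day 4) and 7.19 (day 6). It fell from day 4 to day 6 by 3.16 on the log2 scale (SE 0.52, limma adjusted p = 0.0317). Day 6 lay below every earlier library, and the next lowest was day 2 replicate 2. Rplp2 stood at 10.05 and 9.76 (day 0), 10.2 and 9.36 (day 2), 10.41 and 10.19 (day 4) and 8.18 (day 6), and fell by 2.12 (SE 0.33, limma adjusted p = 0.0285). Rplp0, the anchor of the stalk, stood at 11.72 and 11.92 (day 0), 11.75 and 11.1 (day 2), 11.84 and 11.53 (day 4) and 10.12 (day 6), and fell by 1.56 (SE 0.27, limma adjusted p = 0.0366). All 3 stalk genes thus passed the test in this step and none in the other steps. Rpsa, a 40S protein also known as a laminin receptor, stood at 11.02 and 10.96 (day 0), 10.79 and 10.81 (day 2), 11.29 and 11.86 (day 4) and 10.06 (day 6), and fell by 1.51 (SE 0.22, limma adjusted p = 0.0249). Its day 4 libraries were the highest of the 7.

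Rpl36, a large-subunit protein gene at chr17:56613416-56614243 on the plus strand (GRCm38), had the largest day 6 fall of the members past the test. Its levels were 7.51 and 7.7 (day 0), 7.9 and 6.82 (day 2), 8.29 and 8.43 (day 4) and 4.43 (day 6). The difference was -3.92 (SE 0.42, limma adjusted p = 0.0161), and its coding sequence had the highest GC content of the members above 0 throughout, 61.32%. The day 4 libraries were the highest and the day 6 library the lowest, and day 2 replicate 2 was the next lowest.

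Rpl28 and Rpl29, also of the large subunit, were among the 5 largest day 6 falls past the test. Rpl28 stood at 7.41 and 7.65 (day 0), 8.14 and 6.87 (day 2), 8.5 and 8.79 (day 4) and 5.54 (day 6), and fell by 3.11 from day 4 to day 6 (SE 0.48, limma adjusted p = 0.0277). Rpl29 stood at 8.27 and 8.08 (day 0), 8.06 and 7.6 (day 2), 8.05 and 8.4 (day 4) and 5.72 (day 6), and fell by 2.51 (SE 0.27, limma adjusted p = 0.0158). In the Rpl29 row the first 6 libraries lay between 7.6 and 8.4, and the day 6 library alone stood apart. This row held 19.5% of the summed reads with 3 near-identical copies on day 6, against 44.8% to 63% in the first 6 libraries. That sum fell by 1.08 from day 4 to day 6, which was not tested. Rpl41, with a coding sequence of only 78 bases, stood at 10.94 and 10.81 (day 0), 11.5 and 10.57 (day 2), 11.95 and 11.52 (day 4) and 9.27 (day 6) and fell by 2.47 (limma adjusted p = 0.0253).

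Among the other large-subunit members that fell on day 6, Rpl8, part of the peptidyl transferase region, had a log2 difference of -2.24, Rpl6 of -2.15, Rpl18 of -2.04, Rpl14 of -1.49, Rpl37a of -1.47 and Rpl7a of -0.97. Small-subunit members that fell included Rps15 (-2.34), Rps7 (-2.18), Rps26 (-1.98), which lies at the mRNA exit channel, Rps2 (-1.89), at the mRNA entry channel, Rps9 (-1.82) and Rps29 (-1.77). Their limma adjusted p-values lay in the range given above.

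At the other end, 12 members had a difference above 0 from day 4 to day 6, none past the test. Rpl10, which joins the 60S subunit late in its assembly, stood at 10.56 and 10.13 (day 0), 10.36 and 10.88 (day 2), 10.38 and 10.5 (day 4) and 11.5 (day 6); the day 6 library was the highest of the 7, and the difference of 1.06 (SE 0.26) did not pass limma's test (adjusted p = 0.0675). With genes of low mean level left out before adjustment it did (adjusted p = 0.0219). Rpl5, which carries 5S rRNA into the subunit together with Rpl11 and binds Mdm2, stood at 7.23 and 7.26 (day 0), 7.24 and 7.71 (day 2), 7.36 and 7.85 (day 4) and 8.36 (day 6), a difference of 0.75 (limma adjusted p = 0.165). Rps4x, an X-linked 40S gene, stood at 12.95 and 12.83 (day 0), 12.88 and 13.04 (day 2), 12.91 and 12.95 (day 4) and 13.31 (day 6) (difference 0.38, limma adjusted p = 0.0973).

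Among the members with the smallest spread of day means were Rps25 (0.21), Rps15a (0.21), Rpl7 (0.26) and Rpl4 (0.38). Rps25 stood at 11 and 10.66 (day 0), 10.56 and 11.23 (day 2), 10.68 and 11.39 (day 4) and 10.88 (day 6), and Rps15a at 10.95 and 10.48 (day 0), 10.56 and 10.77 (day 2), 10.57 and 11.19 (day 4) and 10.72 (day 6). In both of these the gap between day 4 replicates was larger than any gap between day means. Rpl7 stood at 12.66 and 12.4 (day 0), 12.58 and 12.66 (day 2), 12.66 and 12.66 (day 4) and 12.79 (day 6), and Rpl4, which lines the exit tunnel, at 13.51 and 13.44 (day 0), 13.77 and 13.31 (day 2), 13.77 and 13.77 (day 4) and 13.39 (day 6). None of these 4 passed limma's test in any comparison.

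At fixed length, the members differed widely in level. Scaled reads per kilobase of coding sequence (log2, mean over libraries) had quartiles of 8.78, 10.78 and 11.91 over the 77 members above 0 in every library, 8.74-fold between the outer quartiles. The highest was Rpl41 at 14.62, whose coding sequence is very short, and the lowest Rpl35 at 3.12. Rpl4, Rps4x, Rpl7, Rps24 and Rps3, the 5 with the highest mean level before division by length, were at 13.23, 13.32, 12.93, 13.71 and 12.78 per kilobase. Rps24 stood at 12.34 and 11.84 (day 0), 12.27 and 12.51 (day 2), 12.42 and 12.51 (day 4) and 12.83 (day 6) and Rps3 at 12.32 and 12.09 (day 0), 12.51 and 11.99 (day 2), 12.7 and 12.55 (day 4) and 12.12 (day 6), before division by length. Neither passed a test between successive days. The per-kilobase medians of the 60S and the 40S members were 10.32 and 11.49 in day 0 replicate 1 and 9.7 and 10.46 on day 6. The part of reads shared with copies in these levels was not tested.

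Paralogs of ribosomal proteins made the day 4 calls. Rpl10l, at chr12:66283379-66284401 on the minus strand (GRCm38), is an intronless copy of the X-linked Rpl10 known for its expression in male germ cells, where it stands in for Rpl10 at meiosis. It stood at 7.23 and 7 (day 0), 6.49 and 6.51 (day 2), 3.29 and 3.75 (day 4) and 2.72 (day 6). From day 2 to day 4 it fell by 2.99 (SE 0.28, limma adjusted p = 0.00886), and its day means had the largest spread of the members above 0 throughout, 4.39. The 4 libraries of days 0 and 2 lay between 6.49 and 7.23 and the 3 later ones between 2.72 and 3.75. The coding sequences of Rpl10l and Rpl10 are 84.81% identical.

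Rpl39l, at chr16:10170226-10174911 on the plus strand (GRCm38), is a paralog of Rpl39, the small protein that lines the exit tunnel, and is also known from the testis. It stood at 6.61 and 6.32 (day 0), 5.53 and 5.74 (day 2), 3.63 and 3.75 (day 4) and 2.24 (day 6), and each day's libraries lay below those of the day before. It fell by 1.94 from day 2 to day 4 (SE 0.29, limma adjusted p = 0.0248), and the next difference, -1.45 (SE 0.36), did not pass (adjusted p = 0.0696). Rpl39, 85.26% identical in coding sequence, stood at 10.47 and 10.15 (day 0), 9.81 and 10.66 (day 2), 10.3 and 11 (day 4) and 10.94 (day 6), with no test between successive days passed. Whether the paralogs differ from their parents in their change was not tested. The day 4 call of Rpl39l was lost when any 1 of the 6 libraries of days 0, 2 and 4 was left out (limma adjusted p from 0.0725 to 0.177). That of Rpl10l held without day 4 replicate 2 (limma adjusted p = 0.0446) and was lost when any other of the 6 was left out (0.0655 to 0.177). With days 2 and 4 alone in the fit, the adjusted p was 0.0862 for Rpl10l and 0.0688 for Rpl39l.

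Rps4l, a relative of Rps4x (79.73% identical over the aligned part), stood at 8.11 and 8.04 (day 0), 8.54 and 7.47 (day 2), 7.16 and 7.43 (day 4) and 4.06 (day 6). It fell from day 4 to day 6 by 3.23 (SE 0.42, limma adjusted p = 0.0219), with day 6 far below the other 6 libraries, which ran from 7.16 to 8.54. Rps27l, a p53-responsive paralog of Rps27 (76.28% identical), stood at 9.52 and 9.09 (day 0), 9.12 and 9.68 (day 2), 8.81 and 9.09 (day 4) and 8.81 (day 6), with no test passed. Rpl7l1, a distant relative of Rpl7 known in ribosome assembly, stood at 10.09 and 9.97 (day 0), 10.08 and 9.93 (day 2), 9.78 and 9.79 (day 4) and 9.19 (day 6). Its day 6 difference was -0.59 (limma adjusted p = 0.061), and over the course it changed (F test adjusted p = 0.0167).

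Rpl3l, the striated-muscle paralog of Rpl3, stood at 0.4 and 0.51 (day 0), 1.7 and 1.09 (day 2), 0 and 0.86 (day 4) and 0 (day 6). All of these lie below the level of 3 reads in their library. Rpl3 stood at 10.34 and 10.35 (day 0), 10.91 and 10.5 (day 2), 11.45 and 11.16 (day 4) and 10.58 (day 6) and changed over the course (limma F test adjusted p = 0.0249), with its highest libraries on day 4. Rpl22 stood at 10.28 and 10.19 (day 0), 10.36 and 10.5 (day 2), 10.8 and 10.99 (day 4) and 10.69 (day 6), higher in both day 4 libraries than in any earlier one. It too changed over the course (limma F test adjusted p = 0.0236), while the step from day 2 to day 4 alone did not pass (adjusted p = 0.0814). That step of Rpl22 passed with genes of low mean level left out before adjustment (limma adjusted p = 0.0478) and with levels corrected for GC (0.0179).

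**Figure D3:**
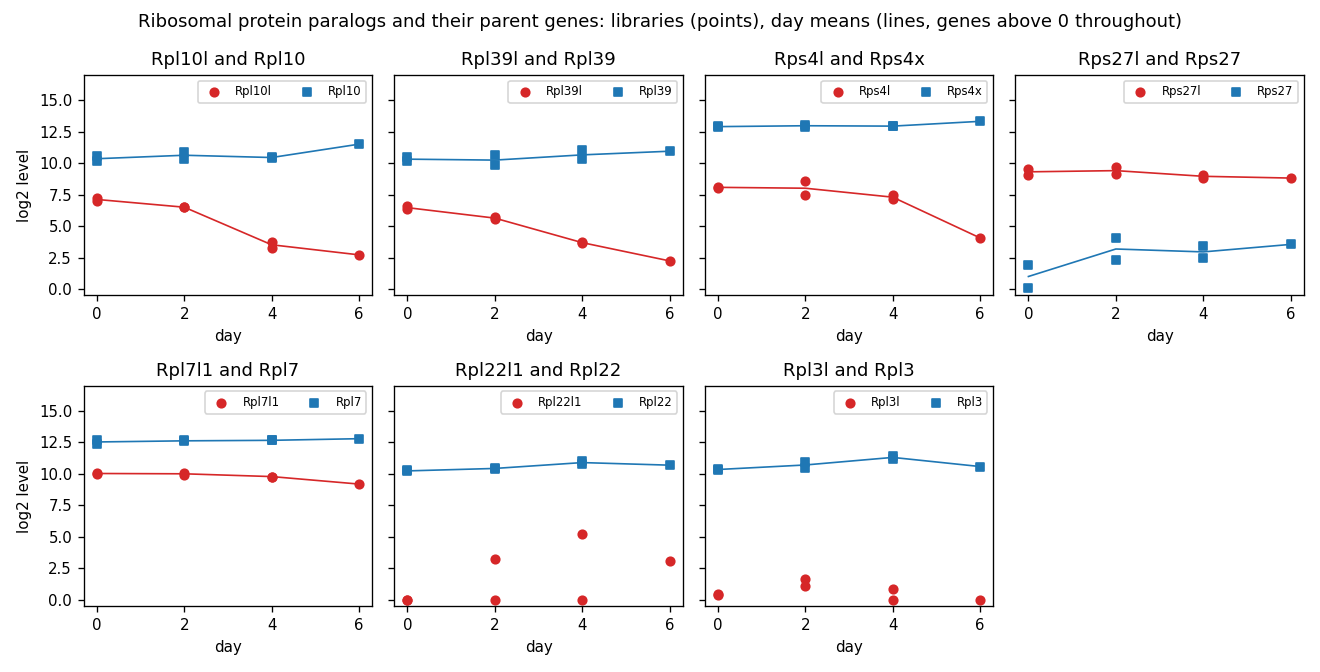
Log2 level against day for 7 paralogs (red circles) and their parent genes (blue squares), with 1 point per library and lines through the day means for genes above 0 throughout. Rpl10l drops from 6.49 and 6.51 on day 2 to 3.29 and 3.75 on day 4. The libraries of Rpl39l lie lower on each later day, and Rps4l has its largest drop on day 6. The libraries of Rpl10, Rpl39 and Rps4x span 1.37, 1.19 and 0.47.

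Rps3a1, a 40S gene at chr3:86137940-86142702 on the minus strand (GRCm38), was the member called lower on day 2. It stood at 9.22 and 9.71 (day 0), 6.8 and 6.8 (day 2), 6.35 and 7.42 (day 4) and 5.94 (day 6). It fell by 2.67 from day 0 to day 2 (SE 0.35, limma adjusted p = 0.00654), which is 6.36-fold, and both day 0 libraries stood above all later ones. The change over the course also passed (F test adjusted p = 0.00474). The day 2 call was lost when any 1 of the 6 libraries of days 0, 2 and 4 was left out, with limma adjusted p from 0.0565 to 0.214 and a difference from -2.91 to -2.43. With days 0 and 2 alone in the fit the adjusted p was 0.0544. Markers of feeder fibroblasts moved in the same step: 11 of 12 were called lower on day 2 (0 to 6 with 1 library left out, 0 without day 2 replicate 1), none was at 0 in any library, and their summed level went from 15.3 and 15.55 to 12.35 and 11.9. Their part in the fall of Rps3a1 was not tested. GENCODE holds 6 near-identical copies of its coding sequence, so reads from copies may also be counted with it or elsewhere.

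Near-identical copies limit how far a single row can be read. A copy was counted where an annotated transcript of another gene matched at least 90% of a member's coding sequence at 95% identity or more. There were 570 of them, 545 annotated as processed pseudogenes and 21 as protein coding, and 77 of the 84 members had at least 1. The median was 5 per member and the highest 56, for Rpl21. A median of 90.3% of the 50-base windows of a member's coding sequence occurred unchanged in another gene's transcript, and in 27 members every window did. Of the 570 copies, 44 had a row in the table, beside 28 members.

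Rpl35, a 60S protein near the tunnel exit, is a member whose row lay far below that of a copy. It stood at 1.76 and 1.92 (day 0), 2.37 and 1.61 (day 2), 2.06 and 3.05 (day 4) and 1.91 (day 6), near the level of 3 reads. The row of Gm2000, 99.73% identical, stood at 9.73 and 9.48 (day 0), 10.16 and 9.53 (day 2), 10.2 and 10.3 (day 4) and 8.68 (day 6). The copy was above the gene in all 7 libraries. Rps27 stood at 0.1 and 1.91 (day 0), 2.3 and 4.07 (day 2), 3.4 and 2.51 (day 4) and 3.55 (day 6), while Rps27rt, identical to it in coding sequence (100%), stood at 11.1 and 10.83 (day 0), 11.09 and 11.18 (day 2), 11.23 and 11.36 (day 4) and 11.51 (day 6). The sources used here do not give how reads were divided between such rows, and the values of Rpl35 and Rps27 are uncertain as levels of their own mRNAs.

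Rpl23a stood at 9.34 and 9.97 (day 0), 4.9 and 4.8 (day 2), 4.98 and 11.1 (day 4) and 0 (day 6), a range from 0 to 11.1. Rpl23a-ps3, 99.79% identical, stood at 10.97 and 10.58 (day 0), 11.21 and 11.34 (day 2), 11.42 and 10.86 (day 4) and 11.21 (day 6). The summed level of both rows was 11.37 and 11.31 (day 0), 11.23 and 11.36 (day 2), 11.43 and 11.98 (day 4) and 11.21 (day 6). The sum stayed between 11.21 and 11.98, while the share of it in the Rpl23a row went from 0% to 54.2%. The Rpl23a row changed over the course by limma's F test (adjusted p = 0.0448).

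In Rps18 and Rpl11 the division between rows differed between replicates of day 4. Rps18 stood at 5.87 and 6.78 (day 0), 5.54 and 6.12 (day 2), 4.95 and 10.23 (day 4) and 5.27 (day 6), and Rps18-ps3, 99.34% identical, at 9.23 and 8.86 (day 0), 9.97 and 9.21 (day 2), 9.8 and 9.51 (day 4) and 9.25 (day 6). The Rps18 row held 3.23% of the summed reads with 3 copies in day 4 replicate 1 and 60.2% in replicate 2, and the sums differed by 1.1. Rpl11 stood at 5.41 and 4.21 (day 0), 4.97 and 5.02 (day 2), 3.06 and 9 (day 4) and 4 (day 6), and Gm10036, 99.25% identical, at 8.85 and 8.68 (day 0), 9.08 and 8.51 (day 2), 9.13 and 9.63 (day 4) and 8.13 (day 6). The Rpl11 row held 1.3% of the sum in day 4 replicate 1 and 39.3% in replicate 2. Gm10260, another Rps18 copy, was lower on the later days: it stood at 8.95 and 9.03 (day 0), 5.23 and 5.84 (day 2), 0 and 0 (day 4) and 0 (day 6).

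Rpl10 and its identical copy Rpl10-ps3 (100%) show a smaller shift. Rpl10-ps3 stood at 9.6 and 10 (day 0), 9.92 and 10.03 (day 2), 9.62 and 11.08 (day 4) and 10.18 (day 6), and the sum of both rows was 11.05 and 11.82 (day 4) and 11.98 (day 6). The day 6 difference of the sum was 0.55, against 1.06 for the Rpl10 row. For members that fell on day 6 and have copy rows, the sums were lower too: the summed level differed by -2.77 for Rps2 with 3 copies, by -2.07 for Rpl41 with 1, by -1.88 for Rplp0 with 1 and by -1.08 for Rpl29 with 3. The members' own rows differed by -1.89 (Rps2), -2.47 (Rpl41), -1.56 (Rplp0) and -2.51 (Rpl29). These sums were not tested.

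**Figure D4:**
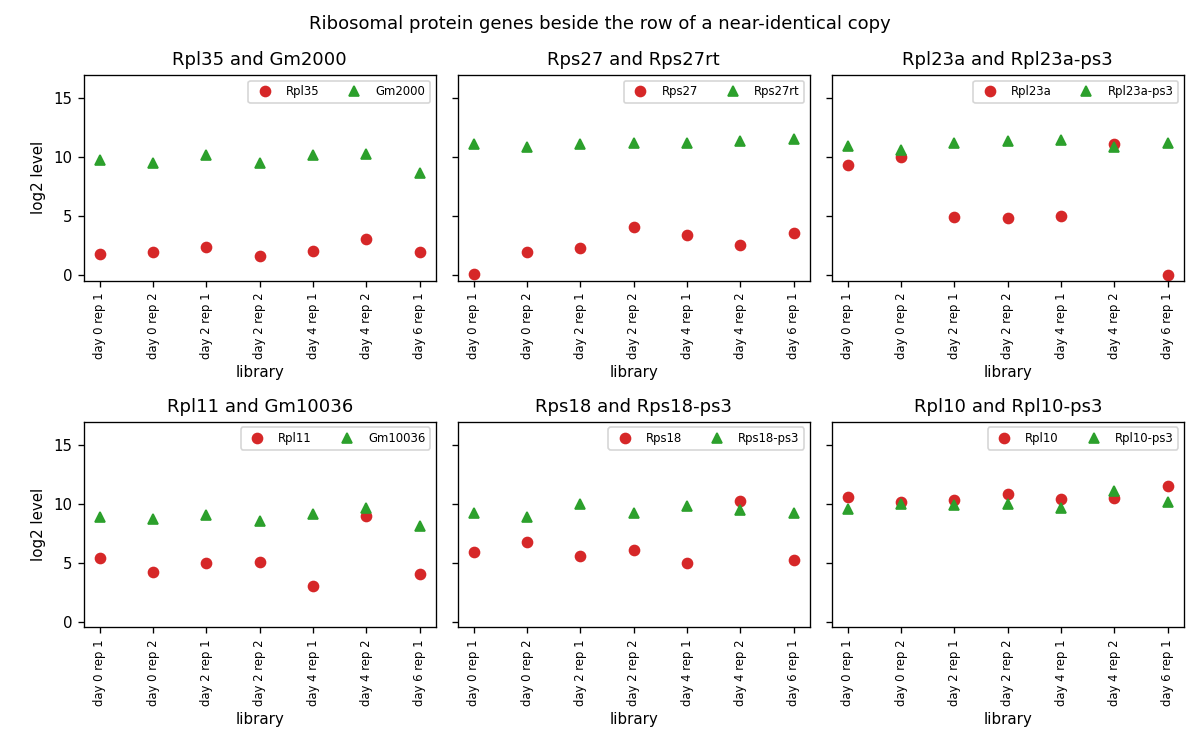
Log2 level in each of the 7 libraries for 6 ribosomal protein genes (red circles) and the row of a near-identical copy (green triangles). Rpl35 and Rps27 lie far below their copies throughout, Rpl23a ranges from 0 to 11.1 while Rpl23a-ps3 stays between 10.58 and 11.42, and Rpl11 and Rps18 approach or pass their copies in day 4 replicate 2 alone.

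Day 4 replicate 2 was above replicate 1 by more than 1 in 18 members, and no member was above by as much in replicate 1. These 18 had a median of 6 copies and the other members 4. In the 18 members with 0 or 1 copy the median gap (replicate 2 minus 1) was 0.01, and it was 0.81 in the 17 members with 10 or more. The other pairs of replicates had 8 members (day 0) and 19 members (day 2) apart by more than 1. Restricted to members with 0 or 1 copy, 6 of 18 were lower on day 6 by limma's test over all genes, and their median difference was -0.86.

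Of the 84 members, 7 were listed at 0 in at least 1 library, Rpl3l among them, and 6 of the 7 have a copy. Rps13, a 40S protein gene, stood at 5.64 and 6 (day 0), 0 and 3.53 (day 2), 0 and 0 (day 4) and 0 (day 6), and changed over the course by limma's F test (adjusted p = 0.0254). Rpl13a, known for a role in translational silencing outside the ribosome, stood at 7.72 and 0.13 (day 0), 0 and 3.79 (day 2), 0 and 3.26 (day 4) and 0 (day 6). Rpl36a stood at 0 and 7.49 (day 0), 3.86 and 0.45 (day 2), 0 and 7.8 (day 4) and 0 (day 6), and Rps16 at 2.72 and 2.22 (day 0), 2.33 and 2.47 (day 2), 0 and 5.61 (day 4) and 0 (day 6). In all 4 of these, replicates of 1 day include a 0 and a value above 3.

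Rpl22l1, a paralog of Rpl22, stood at 0 and 0 (day 0), 0 and 3.26 (day 2), 0 and 5.22 (day 4) and 3.08 (day 6), with a 0 in 4 of the 7 libraries. None of Rpl13a, Rpl36a, Rps16 and Rpl22l1 passed limma's test in any comparison or over the course.

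Base composition moved with the day 6 differences. Over the 77 members above 0 in every library, the difference from day 4 to day 6 and the GC content of the coding sequence had a Spearman correlation of -0.55 (Pearson -0.53), given as a description since the genes share libraries. Over all genes tested, 3.18% were called lower on day 6, and that share is not given by GC bin here. Of 21 members with 55% to 60% GC, 15 were called lower, with a median of -1.82. Of 34 with 50% to 55%, 7 were called (median -0.79), and of 18 with 45% to 50%, 1 was called (median -0.26). Rpl39l, Rpl30 and Rpl39, the 3 below 45% and above 0 throughout, were not called. Their median was -1.45 (range -1.5 to 0.29), lower than in the bins from 45% to 55%, so the medians did not follow GC there.

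Other genes showed a gradient of the same sign and smaller size. Their medians were -0.48 (55% to 60%), 0 (50% to 55%), 0.33 (45% to 50%) and 0.5 (below 45%). Within each of these bins the members' median was lower than that of the other genes. Replicates differed with GC too: over the 77 members, replicate 2 minus replicate 1 had a Spearman correlation with GC of 0.29 on day 0, -0.66 on day 2 and -0.33 on day 4. In 22 of the 24 members called lower on day 6, day 2 replicate 2 was below replicate 1. Against day 4 replicate 1 alone the day 6 correlation was -0.6, and against replicate 2 alone -0.4.

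With levels corrected for GC in each library, 23 members were lower on day 6 by limma, 20 of them among the 24 and 3 not (Rpl7l1, Rpl39l and Rpl31). The 23 were 27.4% of members, against 2.93% of all genes. The members' median difference was -0.83, and the correlation with GC was -0.25. The Spearman correlation of the day 6 difference was -0.02 with coding length and 0.06 with the number of copies.

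**Figure D5:**
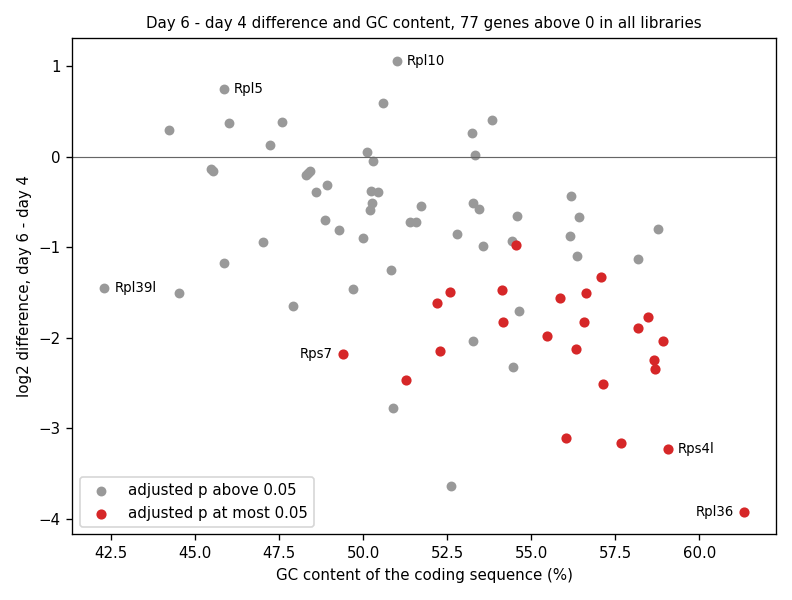
Log2 difference from day 4 to day 6 against GC content of the coding sequence (%) for the 77 ribosomal protein genes above 0 in every library, red for a limma adjusted p of at most 0.05. Genes with 55% to 60% GC have a median of -1.82, those with 45% to 50% of -0.26 and the 3 below 45% of -1.45. Rpl36, at 61.32% GC, is the lowest at -3.92.

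Genes that build ribosomes or act beside them were read from lists taken from general knowledge. Their calls rest on single libraries as the members' do. For day 4, limma called 0 of all genes when a day 0 library, a day 2 library or day 4 replicate 1 was left out, and for day 6 it called 0 without day 2 replicate 1, day 2 replicate 2 or day 4 replicate 1. Of 58 biogenesis factors tested, which process ribosomal RNA and assemble subunits, 0 were called on day 2 (3 higher and 0 lower at an unadjusted p under 0.05 in limma), 6 fell on day 4 (2.13% of all genes did) and 11 fell on day 6 (3.18% of all genes), with none higher. Their medians were -0.01, -0.49 and -0.47, so from day 2 to day 4 their median was below 0 while that of the ribosomal proteins was above it. Utp20, of the small-subunit processome, stood at 10.7 and 10.64 (day 0), 10.56 and 10.61 (day 2), 9.64 and 9.62 (day 4) and 8.82 (day 6), and fell in both later steps, with differences of -0.96 (limma adjusted p = 0.0102) and -0.81 (adjusted p = 0.0262). Nop2, an rRNA methyltransferase, fell on day 6 by 1.56 (limma adjusted p = 0.0186). Without day 4 replicate 2, 1 biogenesis factor was called lower on day 4 and 1 on day 6, and without either day 0 library 1 was on day 6.

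Of 16 genes of RNA polymerase I and its factors, which transcribe the large rRNA precursor, 2 fell on day 4 (Polr1b at -0.77, Rrn3 at -0.74) and 4 on day 6 (Polr1a at -0.79, Polr1b at -1.03, Tcof1 at -1.97, Ubtf at -0.98). Medians were 0.1, -0.32 and -0.54. Of 22 translation factors and other genes whose mRNAs carry the pyrimidine tract, 2 rose (Hnrnpa1 by 0.75, Nap1l1 by 0.53) and 2 fell on day 2 (Eif4a2 at -0.78, Vim at -3.89), 1 rose on day 4 (Vim by 1.8) and 3 fell on day 6, with medians of 0, 0.22 and -0.02. Among the 3 were Eef1d (-1.76) and Gnb2l1, the Rack1 gene of the 40S head (-1.31).

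Among 17 regulators of ribosomal protein output, Ddit4, an inhibitor of mTOR complex 1, rose on day 4 by 1.84 (limma adjusted p = 0.0254), a call that ended when any 1 of the 6 libraries of days 0, 2 and 4 was left out. Larp1, the tract-binding repressor, fell on day 6 by 1.17 (limma adjusted p = 0.0196), with Eif4ebp1 (-1.22) and Trp53 (-1.36). Of 16 chaperones, Grwd1 (-2.08) and Hspa8 (-1.73) fell on day 6. None was called in the earlier steps, with 0 higher and 1 lower on day 2 and 1 higher and 4 lower on day 4 at an unadjusted p under 0.05 in limma. The 73 mitochondrial ribosomal protein genes had 0 calls on day 2 and day 4 and 4 falls on day 6 (Mrpl12 at -1.3, Mrps9 at -1.37, Mrpl28 at -1.4 and Mrpl4 at -2.57; 3.18% of all genes were called lower), with medians of 0.14, -0.28 and 0. At an unadjusted p under 0.05 limma had 7 of them higher and 0 lower on day 2 and 0 higher and 9 lower on day 4.

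Of 16 rows named as ribosomal protein pseudogenes, 1 fell on day 2 (Rpl7a-ps3, at -1.41), none was called on day 4 (2 at an unadjusted p under 0.05 in limma), and on day 6 Rps26-ps1 was called higher and Rpl27-ps3 and Rps2-ps6 lower, Rpl27-ps3 being listed at 0 there. Rps2-ps6, 96.47% identical to Rps2, stood at 9.53 and 9.96 (day 0), 10.41 and 7.97 (day 2), 11.16 and 10.31 (day 4) and 6.07 (day 6). Day 6 was the lowest of the 7 libraries in both Rps2-ps6 and Rps2.

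Cell markers moved through the course beside these genes, and their calls too rest on single libraries. Of 8 stem cell markers, 4, 5 and 6 fell in the 3 steps, and their summed level went from 13.84 and 13.64 on day 0 to 12.24 and 12.27 on day 4 and 11.01 on day 6. None was at 0 in any library. Of 5 neural markers, 3 rose on day 2 and 3 on day 4, and of 5 primitive streak markers 2 rose on day 4 and 1 fell on day 6. With only the 2 days compared in the fit, 1 stem cell marker fell on day 2 and 0 on day 4. In those fits 0 neural and 0 primitive streak markers rose. Of 12 feeder markers, 5 fell and 1 rose on day 4 and 0 were called on day 6 (5 higher and 1 lower at an unadjusted p under 0.05 in limma), with summed levels of 11.89 and 11.81 on day 4 and 11.85 on day 6. Of 4 blood and endothelial markers, 1 fell on day 2, 1 fell on day 4 and 1 rose on day 6. The part of these markers' cells in the day 6 falls of ribosomal protein genes was not tested.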

How the data were processed

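Bulk RNA-seq of polyadenylated RNA from 7 mouse libraries came as a single deposited table (30590 rows, 7 value columns, 0 of them unmapped). The column of day 0 replicate 2 is spelled with the letter O for the zero of its label. Per the values, what the authors deposited is the natural log of 1 plus scaled reads, and columns once sorted are equal within 0.01 (log2) over the top 9273 ranks, which is quantile normalization. The submitters' processing notes name GRCm38 as build. Aligner, counter, annotation, strandedness and the treatment of reads that match several genes: not given in the sources used here. Overlapping and antisense genes carry the same uncertainty as near-identical copies.

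Division by the natural log of 2 turned the values into log2 levels. The 103 spike-in, reporter and selection rows and 8674 genes at 0 throughout were left out. All 21813 remaining genes entered 1 limma-trend fit with robust empirical Bayes (limma 3.58.1, R 4.3.3), with a mean per day, and Benjamini-Hochberg adjustment. The fit was run on simulated levels in which genes were moved on day 4, and only the step from day 2 to day 4 was scored. The comparison with the single day 6 library was not covered by that run. Depth per library enters only through the level taken as 3 reads, which limits low rows, and the replicates number 2 at most.

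Coding sequences, GC content and copies came from GENCODE M21 (GRCm38), with copies found by blastn 2.17.0, and start windows from RefSeq (GRCm38.p6). Tables were made with Python 3.11.15 and pandas 2.3.3. The labels give 1 code to the libraries of replicate 1, day 6 among them, and another to those of replicate 2. What the code stands for was not clear from the labels used here. The day 6 comparison therefore sets a library of 1 code against the mean of both. Replicate 1 minus 2 correlated across 11800 genes at -0.0582 between days 0 and 2, -0.0662 between days 0 and 4 and 0.222 between days 2 and 4. The main fit did not pair the libraries by number, and a replicate block was fitted as an alternative.

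Members with values in every library are the 5 largest calls per step and direction, members listed at 0 in a library and at 3 or more in another, paralogs with their parents, the stalk genes and Rpsa, the 5 highest and lowest by mean level and the 5 with the smallest and largest spread of day means. Rpl5 and Rpl10 at the upper end of the day 6 differences, Rpl41, Rps18 and Rpl11 were chosen after their values were seen, as were the copy rows shown. Some genes that this rule names are not reported here. The members, the gene and marker lists and this rule were chosen with earlier results of these data known. Alternatives were a filter on the mean level, centring on library medians, a pseudocount of 10, plain moderation, a replicate block, fits of 2 days alone, leaving out each library, members above 0 throughout, GC-corrected levels and members with at most 1 copy.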

Additional observations from a re-analysis of the deposited data

How the results depend on the processing

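Counts are of members called by limma at an adjusted p of at most 0.05, as in the report. The share of all genes changed over the course, 28.6% in the main fit, is not given for the alternatives. Centring on library medians changed no count. Among genes at the mean-level minimum, 76 of 84 members remained, with 7 higher on day 4, 1 higher on day 6 (Rpl10) and 33 lower on day 6. In that fit 625 and 745 of all 11800 genes were called higher on day 4 and day 6. Lower on day 6 were 12.3% of all genes, against 43.4% of members. A pseudocount of 10 gave 2 lower on day 2 (6.71% of all genes were) and 19 lower on day 6 (2.33% of all genes were). Without trend and robust moderation, 4 were lower on day 6 and 9 changed over the course. With only the 2 days compared in the fit, 0 were lower in each of the 3 steps, where fewer samples are left. The replicate block gave 1, 2 and 24 lower in the 3 steps (21 of the last among the 24) and 36 over the course, and changed no count by over 1.5 times. It called 5.52%, 1.59% and 2.34% of all genes lower in the 3 steps. Restricted to the 77 members above 0 throughout, 24 were lower on day 6 and 37 changed over the course. Leaving out 1 library at a time gave 0 to 1 lower on day 2, 0 to 1 lower on day 4, 0 to 3 lower on day 6 and 2 to 26 over the course, with 2 or 3 for the last count when a day 0 library was left out. The members' median difference ran from -0.18 to 0.08 on day 2, 0.08 to 0.55 on day 4 and -1.42 to -0.48 on day 6. Alternatives chosen after seeing the data were GC-corrected levels, with 2 lower on day 2, 4 higher on day 4, 23 lower on day 6 (20 of them among the 24) and 36 over the course, and the 18 members with at most 1 copy, with 0 lower on day 2, 6 lower on day 6 and 10 over the course. With GC-corrected levels 7.77% of all genes were lower on day 2 and 2.93% on day 6, and 520 of 21813 were higher on day 4. Beyond the fewer genes or samples that an alternative holds, the cause was not tested. No result changed direction past the threshold. Low rows near the level of 3 reads and the single day 6 library limit the precision.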
